A study of Mus musculus with 26 samples.

Results

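Prefrontal cluster 3, named Pfr_3 in the authors' cell table, was a set of 113 thalamic neurons that project to prefrontal cortex. Its members were taken from the authors' own cluster column, 113 of the 388 prefrontal-projecting cells and of the 1972 cells in all. The working description of the cluster was a Calb2-rich population of sequencing batch 1, marked by Calb2, Necab1 and Slc30a3. The study profiled single thalamic neurons from mice after retrograde labelling, in which a tracer taken up by axons in a cortical area marks the cell bodies that project there. Fluorescent neurons were picked by hand from dissociated thalamus, a spike-in RNA was added, and unique molecular identifiers (UMIs, tags that mark single captured molecules) were counted per gene.

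All groups used here were male mice per the cell table, with no other treatment named. Neither strain nor tracer is named in the sources used here. Pfr_3 came from 2 animals of batch 1, with 52 cells in animal 1 and 61 cells in animal 2. Both animals had an age entry of 91 in the cell table, whose unit was not stated. The prefrontal cells of the other batches came from animal 3 in batch 2, age entry 77, and animal 4 in batch 3, age entry 70. Auditory-projecting cells of batch 1 came from 2 animals with an age entry of 104, and motor-projecting cells of batch 1 from 2 animals with an age entry of 112. The prefrontal cells of batch 1 were sorted on 1 date, and no sort date of batch 1 held more than 1 projection system. Projection target, age and sort date can therefore not be told apart in the comparisons within batch 1.

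Projection neurons of the thalamus are glutamatergic cells that release glutamate through the vesicular transporters encoded by Slc17a6 and Slc17a7. Neurons that reach prefrontal cortex lie mostly in mediodorsal, midline and intralaminar nuclei, whose cells are known for calcium-binding proteins such as calretinin and for neuropeptides. Relay neurons of the sensory and motor nuclei are known for fast, sustained spiking and for the potassium and sodium channels that allow it. Calb2 encodes calretinin, Necab1 encodes an EF-hand calcium-binding protein, and Slc30a3 encodes ZnT3, a zinc transporter of synaptic vesicles.

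Pfr_3 held most prefrontal cells of batch 1 and none of the other batches. It made up 52 of 64 prefrontal cells in animal 1 (81.25%, Wilson 95% interval 70.0 to 88.9%) and 61 of 74 in animal 2 (82.4%, 72.2 to 89.4%). In animal 3 it held 0 of 170 cells, which allows a share of up to 1.76%, and in animal 4 it held 0 of 80 cells, which allows up to 3.75%. The limits for 0 cells are 3 counts of the total, and the Wilson upper bounds are 2.21% and 4.58%. These intervals and limits cover counting error only. Pfr_2 was the next largest cluster in batch 1, with 7 and 8 cells of animals 1 and 2, and it held 94 and 25 cells of animals 3 and 4. Pfr_4 held 2 and 1 cells of animals 1 and 2 and 45 and 49 cells of animals 3 and 4. Cluster and batch can therefore not be told apart when Pfr_3 is set against Pfr_4, and the 15 Pfr_2 cells of animals 1 and 2 are the only cells of those clusters in numbers that allow a comparison within the same animals. When the authors clustered the cells of all systems together, 95 of the 113 Pfr_3 cells fell into joint cluster 9, which held 99 cells in all. A further 10 fell into joint cluster 5, 7 into joint cluster 7 and 1 into joint cluster 6.

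**Figure D1:**
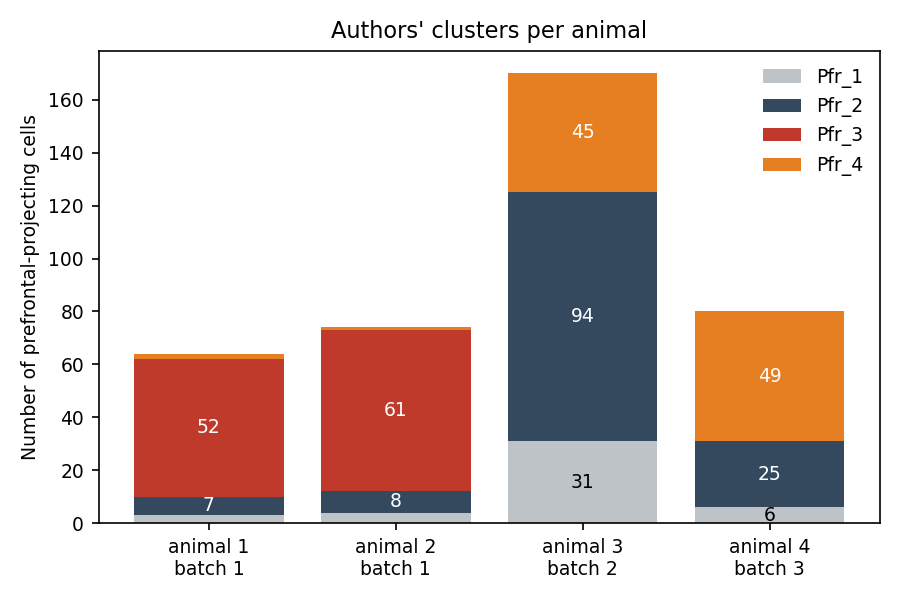
Number of prefrontal-projecting cells in each of the authors' 4 prefrontal clusters, stacked per animal, with the animal and its sequencing batch on the horizontal axis. Pfr_3 holds 52 and 61 cells in the batch 1 animals and none in animals 3 and 4, where Pfr_2 and Pfr_4 hold most cells.

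The summed counts of Pfr_3 were 5830981 UMIs in animal 1 and 11335831 UMIs in animal 2. The median cell held 94783 and 179263 UMIs and 4760 and 5759 genes. The 6 plates held between 14 and 25 Pfr_3 cells each. Of the 113 well barcodes, 111 also occurred on another plate of the series, so the barcode alone does not separate cells. None of the 113 cells carried the authors' flag. In 10 cells 3 or more markers of a glial type had a UMI, 9 of them oligodendrocyte markers and 1 microglial markers. All 13 listed markers of thalamic neurons were detected in both animals, at 6659 and 7134 CPM in sum (UMIs of a gene scaled to the total of all UMIs in the sum), while the 9 markers of GABA neurons summed to 3.43 and 21.2 CPM, with 7 and 5 of them at 0. Markers of cortical neurons summed to 31.2 and 28.3 CPM. The 9 markers of the habenula summed to 194 and 178 CPM, with 5 and 6 of them at 0. The 10 astrocyte markers summed to 425 and 408 CPM, with 8 and 5 at 0, and the 10 microglial markers to 205 and 164 CPM. In batch 1 the astrocyte sums were 236 and 216 CPM in auditory cells and 454 and 557 CPM in motor cells.

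Sequences are shown for Mir6236, the named gene with the largest gap to the Pfr_4 and Pfr_2 cells of batches 2 and 3, and for Slc30a3 and Rab3b, a marker of Pfr_3 and the gene that ranked most like Calb2 among its cells. They come from RefSeq on GRCm38.p6, and gene positions are those of GENCODE M21 on the mm10 build. Mir6236 (chr9:110281287-110281409, plus strand) encodes a microRNA whose mature form is given with bases 2 to 8, the seed, in capitals. Slc30a3 lies on chr5:31086106-31108237 (minus strand) and Rab3b, which encodes a small GTPase of synaptic vesicles, on chr4:108879063-108943324 (plus strand). The 250 bases upstream of a RefSeq start are given for each, at chr5:31093528-31093777 and chr4:108878820-108879069, with every GC box (GGGCGG, or CCGCCC on the other strand) in capitals.
mmu-miR-6236: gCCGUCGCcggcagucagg
Slc30a3: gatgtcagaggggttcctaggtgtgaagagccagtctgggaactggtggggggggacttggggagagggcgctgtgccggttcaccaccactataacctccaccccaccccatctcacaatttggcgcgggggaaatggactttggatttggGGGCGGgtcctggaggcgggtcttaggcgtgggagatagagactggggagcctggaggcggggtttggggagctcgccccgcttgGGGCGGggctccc
Rab3b: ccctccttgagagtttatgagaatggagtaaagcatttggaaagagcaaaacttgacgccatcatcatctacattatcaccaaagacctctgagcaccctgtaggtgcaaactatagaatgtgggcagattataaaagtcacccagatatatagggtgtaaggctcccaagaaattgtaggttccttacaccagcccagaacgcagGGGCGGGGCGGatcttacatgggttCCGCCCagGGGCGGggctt
The Slc30a3 window held 2 GC boxes and the Rab3b window 4, and a GC box occurred in 10756 of the 32851 promoter windows of this length (32.7%). The window of a second Slc30a3 start, chr5:31108245-31108494, held 0. A motif match is a description of the letters in the window and not of a bound factor.

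Calb2 was high in the Pfr_3 sum of every plate and was detected in nearly every Pfr_3 cell. Its summed level was 1659 CPM in animal 1 and 2141 CPM in animal 2, and the 6 plates ran from 1180 to 2426 CPM. Of the 113 cells, 109 held a Calb2 UMI, and the level per cell ran from 0 over a median of 1450 to 6045 CPM. Necab1 stood at 518 and 457 CPM and had a UMI in 107 cells. Slc30a3 stood at 157 and 251 CPM and had a UMI in fewer cells, 74 of 113. All 3 markers were detected together in 71 cells, and Calb2 together with Necab1 in 105. Tnnt1, a troponin gene that the study used with Necab1 and Calb2 as a landmark of thalamic profiles, was low at 3.94 and 10.1 CPM and had no UMI in 94 cells. Among these 3 landmark genes Calb2 was the highest in 95 cells, Necab1 in 13 and Tnnt1 in 2, and 3 cells had none highest.

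**Figure D2:**
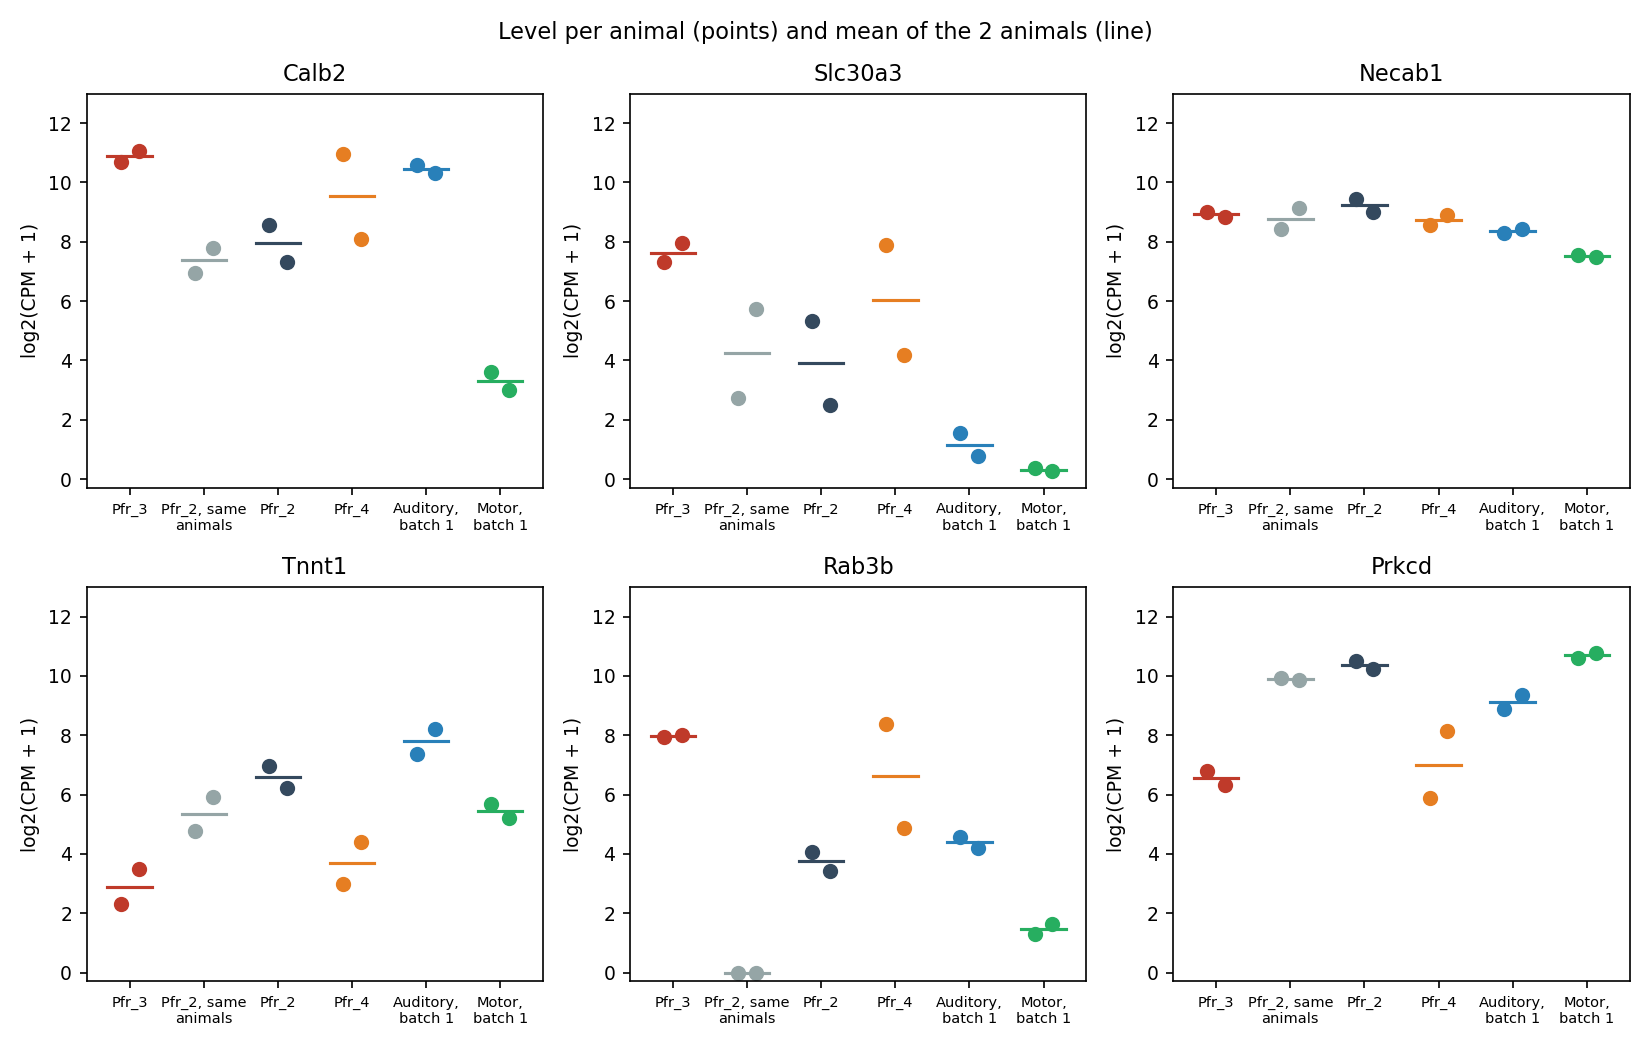
Level of 6 genes in the sum of cells of each animal, on the log2(CPM + 1) scale, with 1 point per animal and a line at the mean of the 2 animals of each group. Calb2 is high in Pfr_3, in batch 1 auditory cells and in 1 of the 2 Pfr_4 sums, whereas Slc30a3 and Rab3b are high in Pfr_3 and in that same Pfr_4 sum, and Prkcd is low in Pfr_3 and in it.

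Calb2 was higher in Pfr_3 than in Pfr_2 and motor cells and close to its level in auditory cells and in 1 of the 2 Pfr_4 sums. Calb2 stood at 121 and 223 CPM in the Pfr_2 cells of the same 2 animals, at 381 and 159.7 CPM in the Pfr_2 cells of animals 3 and 4, and at 11.2 and 7.03 CPM in motor cells of batch 1. Auditory cells of batch 1 held 1543 and 1290.1 CPM and lay close below both Pfr_3 sums. Pfr_4 was split, with 2013 CPM in animal 3 and 269 CPM in animal 4. The animal 3 value lay between the 2 Pfr_3 values, so Calb2 did not separate Pfr_3 from Pfr_4.

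Slc30a3 followed the same split in Pfr_4 and a different one elsewhere. It stood at 239 CPM in Pfr_4 of animal 3, inside the Pfr_3 range, and at 17 CPM in animal 4. Pfr_2 held 5.59 and 52.6 CPM in animals 1 and 2 and 39.2 and 4.59 CPM in animals 3 and 4. Auditory cells of batch 1 held 1.95 and 0.701 CPM and motor cells 0.287 and 0.199 CPM, far below every Pfr_3 plate, the lowest of which had 90.5 CPM. The share of cells with a Slc30a3 UMI was 61.5% and 68.9% in Pfr_3, 62.2% and 8.16% in Pfr_4, 5.48% and 11.8% in auditory and 6.76% and 4.88% in motor cells of batch 1. The median motor cell held 204543.5 and 215798.5 UMIs, more than the median Pfr_3 cell. The part of free RNA in these shares was not tested. Necab1 varied little between prefrontal groups, with Pfr_4 at 382 and 478 CPM and Pfr_2 of animals 3 and 4 at 695 and 518 CPM, and the groups overlapped.

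Within Pfr_3 the level of Calb2 varied between cells, and a few genes ranked with it. Over the 113 cells, the gene whose level ranked most like Calb2 among 4146 genes was Rab3b, with a Spearman correlation of 0.73, and of 0.71 and 0.75 within animals 1 and 2. Ctxn1, a cortexin, followed at 0.65, Gpx3, a secreted glutathione peroxidase, at 0.64, and the ribosomal protein gene Rps3a1 at 0.59. Calb2 itself correlated with the total UMIs of a cell at 0.37, so part of each value is shared with depth. Slc30a3 ranked most like Pgrmc1 (0.52) and Calb2 (0.48), and Necab1 did not rank with Calb2 (0.0092). These correlations are descriptions across cells that share libraries and depth.

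**Figure D3:**
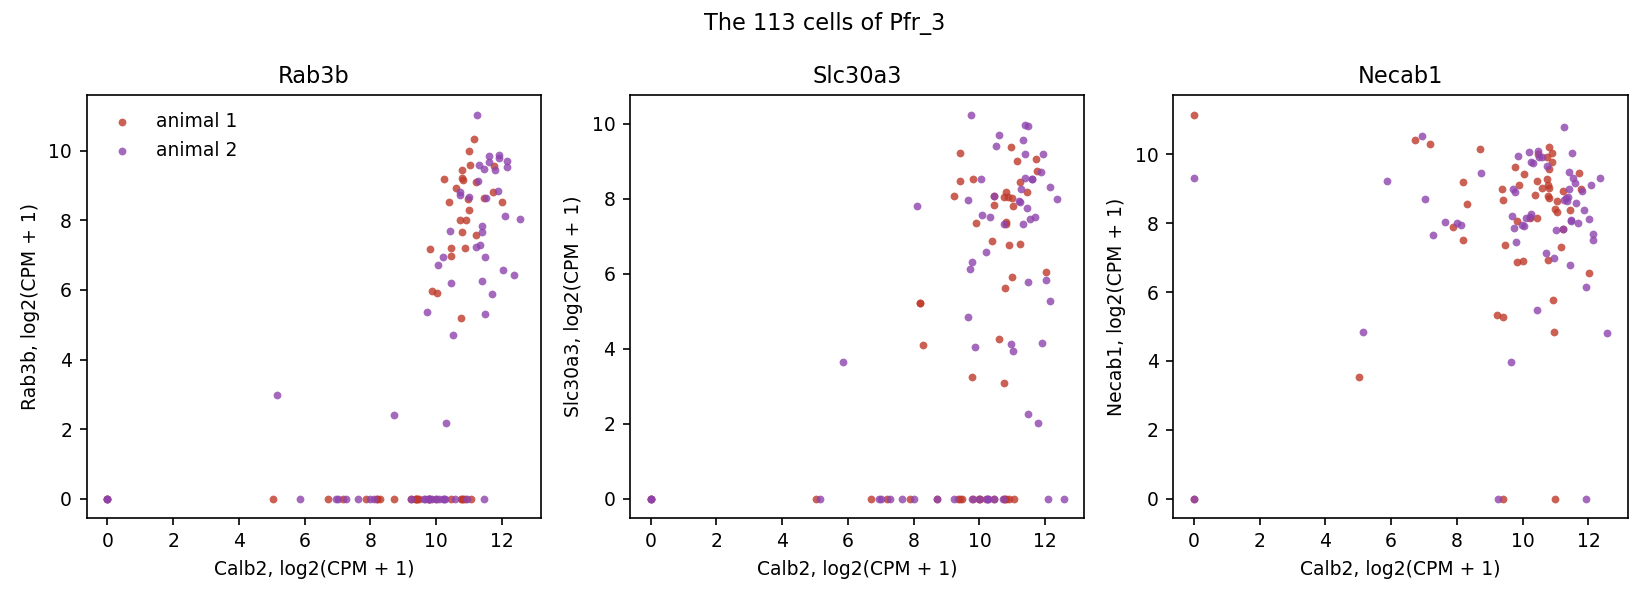
Level of Rab3b, Slc30a3 and Necab1 against Calb2 in each of the 113 Pfr_3 cells, log2(CPM + 1) on both axes, coloured by animal. Rab3b is 0 in most cells with little Calb2, cells of both animals lie along the range, and Necab1 shows no such order.

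Among the Pfr_3 cells, the authors' joint clusters differed in the same genes. In the 95 cells of joint cluster 9, Calb2 stood at 2186 CPM, Slc30a3 at 249 CPM and Rab3b at 286 CPM. In the 10 cells of joint cluster 5, Calb2 stood at 714 CPM and Slc30a3 at 2.09 CPM, and Rab3b had no UMI. The 7 cells of joint cluster 7 had Calb2 at 351 CPM and neither of the other genes. Cells without a Rab3b or Slc30a3 UMI also occurred within joint cluster 9, and the joint clusters were drawn from these counts, so these values are a description. Joint cluster 9 held 99 cells in all, so most of the 45 Pfr_4 cells of animal 3 lay outside it. The sum of those Pfr_4 cells was also high in Calb2, Slc30a3 and Rab3b.

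Levels of Slc30a3 and Gal also varied between plates and cells. Gal, which encodes the neuropeptide galanin, ranged from 69.3 to 116 CPM on 5 plates and stood at 313 CPM on plate 2. It had a UMI in 48 of the 113 cells, and 1 cell held 24.1% of its UMIs. Cnr1, the cannabinoid receptor CB1, also had a UMI in 48 cells, Fbln1, an extracellular matrix fibulin, in 85, and C1ql3, a secreted synaptic organizer, in 97. Slc17a6 (VGLUT2) had a UMI in all 113 cells and Slc17a7 (VGLUT1) in 8.

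The comparison with auditory cells of the same batch asked how Pfr_3 differed from thalamic neurons of another projection system without a difference in sequencing batch. Counts were summed per animal and tested by edgeR's quasi-likelihood test with Benjamini-Hochberg adjustment over 16146 genes, with a threshold of 0.05. Adjusted p-values below all come from this test, many with the log2 fold and a standard error (SE). The SE was computed as the size of the log2 fold divided by the square root of the test's F statistic. It restates the test and is not a separate measure of spread. Against auditory cells 358 genes passed (2.22%), of which 159 were higher in Pfr_3 (0.985%) and 199 lower (1.23%). Against motor cells 847 passed (5.25%), of which 422 were higher (2.61%) and 425 lower (2.63%). The authors drew Pfr_3 from these prefrontal counts, so the comparison is not fully independent of the choice of cells. With all 64 and 74 prefrontal cells of batch 1 in its place, 192 genes passed against auditory cells, 105 higher and 87 lower, and 599 against motor cells.

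Among the 3 given markers, Slc30a3 differed most from both systems. The markers were chosen with earlier results of these data known, so their adjusted p-values are a description and no independent support. It was 7.34 ± 0.53 (SE) higher on the log2 scale than in auditory cells (adjusted p = 0.00145) and 9.63 ± 0.60 higher than in motor cells (adjusted p = 0.000104). Calb2 was 7.67 ± 0.30 higher than in motor cells (adjusted p = 1.7e-05), but its difference from auditory cells of 0.44 ± 0.22 did not pass (adjusted p = 0.381). Necab1 was 1.38 ± 0.17 higher than in motor cells (adjusted p = 0.00244) and 0.59 ± 0.17 from auditory cells, which did not pass (adjusted p = 0.138). Tnnt1 was lower than in auditory cells, which held 163 and 298 CPM, by a log2 fold of -4.96 ± 0.50 (adjusted p = 0.00319). With all prefrontal cells of batch 1 in place of Pfr_3 this Tnnt1 difference was -2.54 and did not pass (adjusted p = 0.128).

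Of 8 tested genes that load synaptic vesicles, 1 was higher than in either system, Slc30a3, and 1 lower, Slc17a7. Slc17a7 was at 0.171 and 1.68 CPM in Pfr_3, at 39.3 and 39.2 CPM in auditory and at 39.1 and 45.9 CPM in motor cells. Its log2 difference was -5.20 ± 0.69 from auditory cells (adjusted p = 0.00845) and -5.37 ± 0.70 from motor cells (adjusted p = 0.00302). Slc17a6 stood at 1032 and 1001 CPM and passed in neither comparison (adjusted p = 0.283 and 0.0612). Pfr_3 thus differed in VGLUT1 and not detectably in VGLUT2. Rab3b, at 246 and 254 CPM, was 3.66 ± 0.30 higher than in auditory cells (adjusted p = 0.0015), which held 22.8 and 17.4 CPM. Of the 24 tested genes of the transmitter release list, 2 were higher and 3 lower than in auditory cells, and 5 were higher and 7 lower than in motor cells. Over all genes 0.985% were higher and 1.23% lower than in auditory cells, and 2.61% and 2.63% than in motor cells.

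Secreted and adhesion molecules of the synapse moved in both directions. C1ql3 stood at 218 and 98.8 CPM in Pfr_3 and at 2.75 and 0.234 CPM in auditory cells, 6.85 ± 0.90 higher (adjusted p = 0.0084). Nptxr, the neuronal pentraxin receptor, stood at 919 and 758 CPM against 53.9 and 60.8 CPM, 3.88 ± 0.21 higher (adjusted p = 0.000351). For Nptxr the animals of each group lay close together, while for C1ql3 they lay further apart. In auditory animal 1 a single cell held 87.5% of the C1ql3 UMIs. Nrxn3, a presynaptic neurexin, was at 114 and 81.0 CPM against 554 and 589.6 CPM, -2.54 ± 0.21 (adjusted p = 0.0015), and Cbln2, a cerebellin that bridges neurexins to postsynaptic receptors, at 17.5 and 33.0 CPM against 121 and 144 CPM, -2.36 ± 0.31 (adjusted p = 0.00829). All 4 also passed in the same direction against motor cells. Of the 24 tested synaptic organizers, 2 were higher and 3 lower than in auditory cells, and 3 were higher and 6 lower than in motor cells. The shares over all genes were 0.985% and 1.23% against auditory cells and 2.61% and 2.63% against motor cells.

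**Figure D4:**
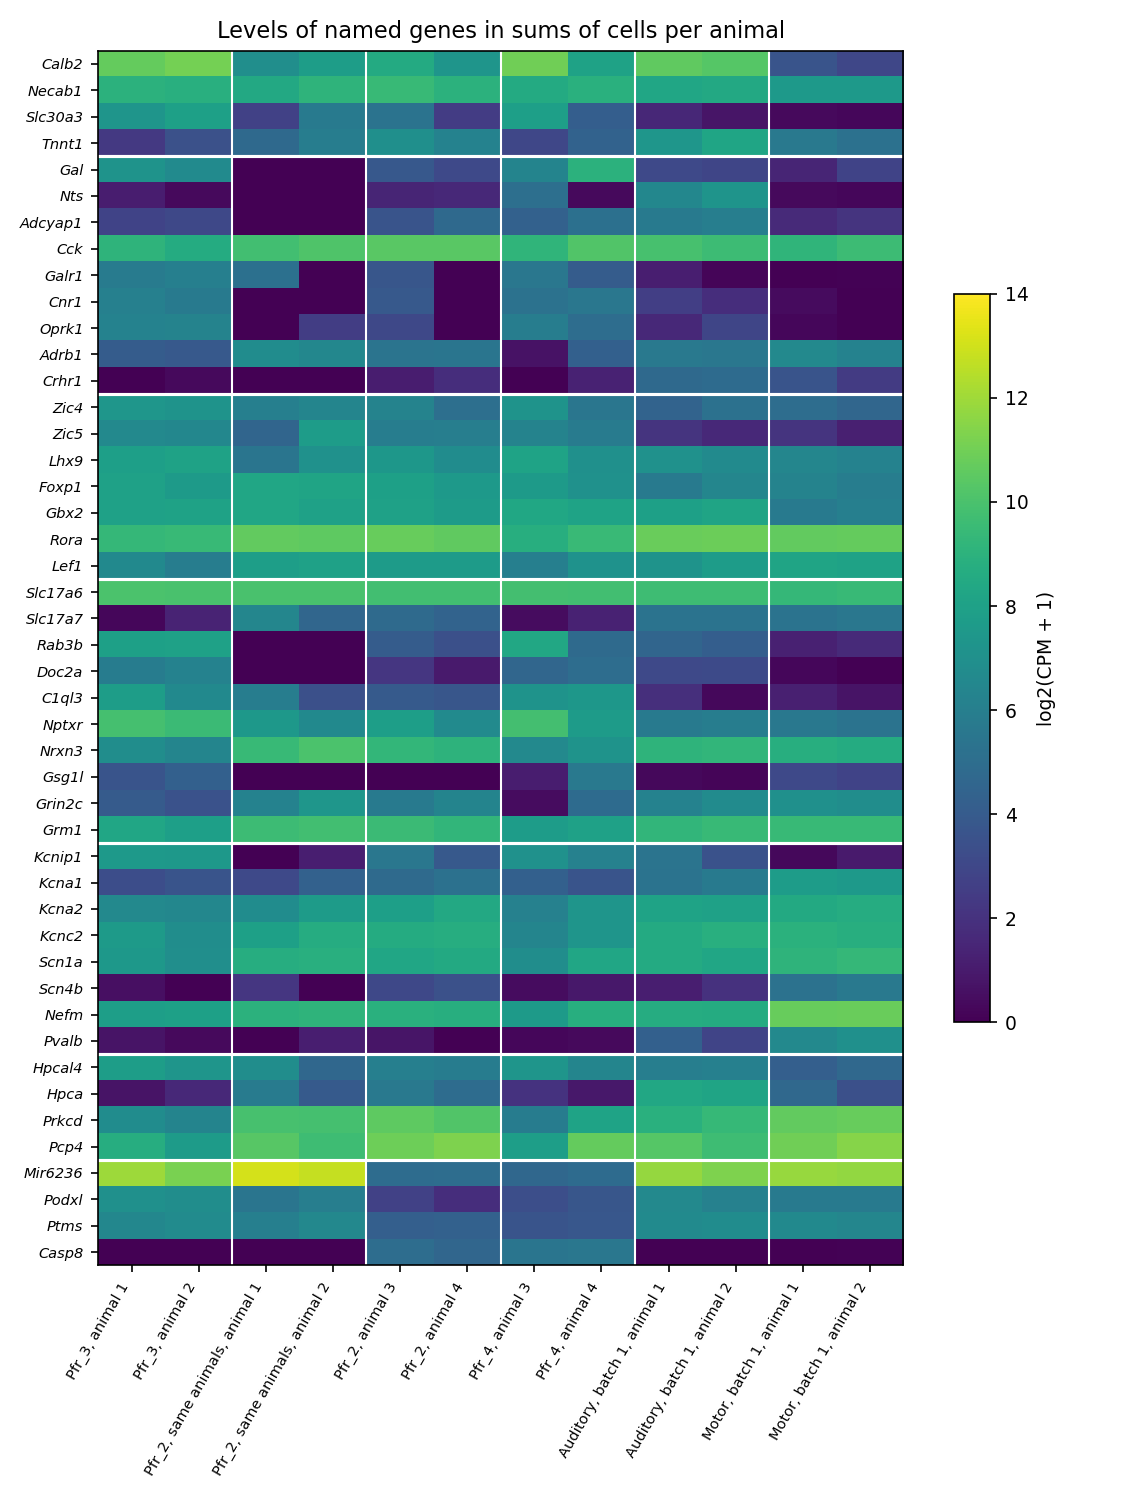
Level of the named genes (rows) in the sum of cells of each animal (columns), as log2(CPM + 1) on the colour scale. The Pfr_3 columns and the Pfr_4 column of animal 3 share high Calb2, Slc30a3, Rab3b and Nptxr and low Rora and Prkcd. Mir6236, Podxl and Ptms are higher and Casp8 is lower in the Pfr_3 columns than in both Pfr_4 columns. The auditory and motor columns are of batch 1 only.

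Genes of fast-spiking relay neurons were the list with the most members on 1 side. None of its 17 tested members was higher in Pfr_3 in either comparison. Against motor cells 14 of 17 were lower, with a median log2 fold of -2.11 beside a median of 0.0046 over all genes. Kcna1, which encodes the potassium channel Kv1.1, stood at 8.92 and 11.6 CPM against 209.8 and 187 CPM in motor cells, -4.29 ± 0.30 (adjusted p = 0.000188). Pvalb, parvalbumin, stood at 0.686 and 0.265 CPM against 94.7 and 131 CPM, -8.07 ± 0.76 (adjusted p = 0.000696). Nefm, a neurofilament of thick axons, stood at 227 and 251 CPM against 1709.7 and 1797 CPM, -2.91 ± 0.16 (adjusted p = 4.9e-05). Against auditory cells 7 of the 17 were lower, with a median of -1.19 beside 0.0044 over all genes. The share of all genes that was lower was 2.63% against motor cells and 1.23% against auditory cells. Kcna2 (Kv1.2) was lower there by a log2 fold of -1.56 ± 0.19 (adjusted p = 0.00649), at 94.0 and 87.2 CPM against 279 and 259 CPM. Of those 7 calls Kcna2 alone held under every alternative run, while Nefm lost its call under 8 alternatives and Scn1a under 4. Kcna1, Kcnc1, Scn1a and Nefm did not pass with all prefrontal cells of batch 1 (adjusted p = 0.233, 0.0883, 0.132 and 0.89), Pvalb did not pass without animal 2 of Pfr_3 (adjusted p = 0.0631), and Kcnc2 did not pass without auditory animal 2 (adjusted p = 0.0671).

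Neuropeptides and markers of midline and intralaminar nuclei were mixed. Of the 15 tested members of the midline and intralaminar list, 7 were higher and 1 lower than in motor cells, and 3 were higher and 2 lower than in auditory cells. Among all genes tested, 2.61% were higher and 2.63% lower than in motor cells, and 0.985% and 1.23% than in auditory cells. Gal stood at 143 and 102 CPM in Pfr_3, at 7.44 and 6.70 CPM in auditory cells and at 1.72 and 5.98 CPM in motor cells. It was 4.13 ± 0.57 higher than in auditory (adjusted p = 0.00995) and 4.93 ± 0.59 higher than in motor cells (adjusted p = 0.00203). Lypd6b, a modulator of nicotinic receptors, was 4.48 ± 0.63 higher than in auditory cells (adjusted p = 0.00995), and Col12a1, a collagen, 3.19 ± 0.39 (adjusted p = 0.00649). The peptide gene Nts, neurotensin, went the other way, at 1.20 and 0.265 CPM against 90.0 and 149 CPM in auditory cells, -7.53 ± 0.66 (adjusted p = 0.00164). Cartpt, which encodes the CART peptide, was also lower than in auditory cells, -7.64 ± 1.00 (adjusted p = 0.00829).

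Receptors for modulators gave 3 higher and 2 lower of 29 tested against auditory cells and 9 higher and 3 lower against motor cells. Over all genes 0.985% were higher and 1.23% lower against auditory cells, and 2.61% and 2.63% against motor cells. Galr1, the galanin receptor 1, stood at 55.6 and 64.8 CPM in Pfr_3 and at 1.26 and 0.156 CPM in auditory cells, 6.51 ± 0.88 higher (adjusted p = 0.00906). Galanin and its receptor were thus both higher in the same sums. Oprk1, the kappa opioid receptor, stood at 74.3 and 76.6 CPM and Cnr1 at 66.4 and 53.5 CPM, against at most 6.47 CPM in either animal of the auditory or motor groups. Both passed against motor cells (adjusted p = 0.000938 and 0.00203). Against auditory cells Oprk1 passed (adjusted p = 0.0202) but lost the call under 2 alternatives. These left out cells with 3 or more glial or vascular markers, or animal 2 of Pfr_3. Cnr1 passed (adjusted p = 0.0376) but lost the call under 5, among them 1 dispersion for all genes and leaving out either Pfr_3 animal. Htr2c, a serotonin receptor, stood at 117 and 108 CPM against 2.64 and 3.34 CPM in motor cells, 5.18 ± 0.29 higher (adjusted p = 5.19e-05), while auditory cells held 167 and 184 CPM and the difference from them did not pass (adjusted p = 0.252). Crhr1, the receptor of corticotropin-releasing hormone, had 0 and 0.265 CPM in Pfr_3 and 26.1 and 29.3 CPM in auditory cells (adjusted p = 0.0115).

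Transcription factors that pattern the thalamus gave 4 higher and 4 lower of 26 tested against auditory cells, and 7 higher and 6 lower against motor cells. Beside these, 0.985% of all genes were higher and 1.23% lower against auditory cells, and 2.61% and 2.63% against motor cells. Zic4 and Zic5, zinc finger factors of the Zic family, were both higher in Pfr_3. Zic5 stood at 94.7 and 89.6 CPM against 3.32 and 2.03 CPM in auditory cells, 5.13 ± 0.55 higher (adjusted p = 0.004), and Zic4 at 166 and 144 CPM against 21.1 and 37.0 CPM, 2.42 ± 0.34 higher (adjusted p = 0.00995). Rora, a nuclear receptor abundant in relay neurons, was at 645 and 701 CPM against 1756 and 1878 CPM, -1.42 ± 0.14 (adjusted p = 0.00265). Gbx2, a homeobox factor of the developing thalamus, stood at 258 and 269 CPM, within the auditory values of 249 and 285 CPM, and 2.15 ± 0.21 above the motor cells (adjusted p = 0.000868). Prkcd, protein kinase C delta, stood at 109.9 and 79.7 CPM and was lower than in auditory cells by -2.56 ± 0.22 (adjusted p = 0.00164) and than in motor cells by -4.17 ± 0.24 (adjusted p = 6.1e-05). With all prefrontal cells of batch 1 the Prkcd difference from auditory cells was -0.82 and did not pass (adjusted p = 0.141). Rgs16, which shortens G-protein signalling, was lower than in both as well, -2.21 ± 0.26 (adjusted p = 0.00549) and -1.83 ± 0.26 (adjusted p = 0.0045).

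The genes with the largest folds were mostly genes near 0 in 1 of the groups. The 10 with the largest folds above auditory cells were Plpp2, Cntnap3, Tmem26, Shroom3, Dkkl1, Fgf16, Tmem114, Upk3a, Fzd9 and Pcsk5. Tmem114 stood at 46.5 and 87.7 CPM against 0 and 0.0779 CPM (adjusted p = 0.0017), and Pcsk5, a proprotein convertase, at 38.6 and 47.7 CPM against 0 and 0.156 CPM (adjusted p = 0.0221). These 2 kept their call under every alternative, and the other 8 lost it when 1 animal was left out, with their largest adjusted p-values of 0.0664 to 0.259. The 10 furthest below auditory cells were Otof, Epsti1, Dusp27, Ppp1r1b, Bmpr1b, As3mt, Adgrf5, Ebf1, Pde1c and Cartpt, of which Adgrf5, Ebf1 and Cartpt kept their call under every alternative. Ebf1, a transcription factor, had 0 and 0.176 CPM in Pfr_3 against 49.3 and 62.2 CPM. The other 7 lost it under at least 1 alternative, and their largest adjusted p without 1 animal ran from 0.0239 to 0.123.

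Against motor cells the 10 with the largest folds above were Rsph9, Plpp2, Gpx3, Slc10a4, Crb1, Galr1, Fibcd1, Fgf16, Tmem45b and St8sia2. Gpx3 stood at 193 and 243 CPM against 0.115 and 0.0499 CPM (11.21 ± 0.48 higher, adjusted p = 1.7e-05). Slc10a4, a transporter of synaptic vesicles, had no UMI in the motor sums and was at least 264-fold higher in Pfr_3, a limit set against 3 counts over that group. Tmem45b had a UMI in 4 Pfr_3 cells, and 1 of them held 67.9% of its UMIs. The 10 furthest below were Apod, Tmem204, Sec14l4, Dusp27, Gucy2c, Sox5, Mael, Slco2a1, Syt2 and Pvalb. Of all 20, Rsph9, Plpp2, Gpx3, Slc10a4, Crb1, Galr1, Slco2a1, Syt2 and Pvalb kept their call under every alternative, and the other 11 lost it under at least 1, with their largest adjusted p without 1 animal between 0.0123 and 0.358. Apod is also a marker of oligodendrocytes, whose 10 listed markers summed to 67.6 and 130 CPM in Pfr_3 and to 411 and 297 CPM in motor cells. Without cells that held 3 or more glial or vascular markers, 790 genes passed against motor cells in place of 847.

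Against Pfr_4, the description rested on 2 sums of each cluster and on the difference in log2(CPM + 1) in all 4 pairs of sums, and no test was made, since the clusters were drawn from these counts. Of 10185 genes at 10 CPM or more in the higher cluster, 262 were higher in Pfr_3 by at least 1 in every pair (2.57%) and 251 lower (2.46%). Slc30a3, Calb2, Rab3b, Nptxr, Gpx3 and Prkcd were not among them. Rab3b stood at 334 CPM in Pfr_4 of animal 3 and 28.0 CPM in animal 4, Nptxr at 886 and 205 CPM, Gpx3 at 280.0 and 63.5 CPM and Prkcd at 57.8 and 283 CPM. For each of these 4 genes the animal 4 value lay on the Pfr_2 side of both Pfr_3 sums, and the animal 3 value did not. Lypd6b, C1ql3, Cnr1 and Fbln1 were at levels like those of Pfr_3 in both Pfr_4 sums, with Lypd6b at 40.3 and 55.7 CPM beside 45.1 and 39.6 CPM in Pfr_3. No member of the midline and intralaminar list or of the fast-spiking list passed the fold in either direction, of 10 and 13 at a sufficient level.

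Many of the genes past that fold were genes that differed between sequencing batches in cells of other systems. Auditory and motor cells were present in all 3 batches, and between batch 1 and batches 2 and 3 edgeR's quasi-likelihood test called 1030 of 16717 genes (6.16%), 510 higher (3.05%) and 520 lower (3.11%) in batch 1. Of the 262 genes higher in Pfr_3 than in Pfr_4, 255 entered that test, and 102 of them (40%) were called higher in batch 1, none lower. Of the 251 lower genes 158 (62.9%) were called lower in batch 1, none higher. When the batch difference of each gene was subtracted, 150 of the 10185 genes were past the fold above Pfr_4 (1.47%) and 69 below (0.677%). These are new counts over all genes, beside 262 and 251, and can include genes that were not among those. Over 10155 genes the difference from Pfr_4 and the batch difference had a Pearson correlation of 0.54 and a Spearman correlation of 0.44, across genes that are not independent replicates. The batch was only 1 of the things that differed, since the animals, ages and sort dates differed too, and their parts were not tested.

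**Figure D5:**
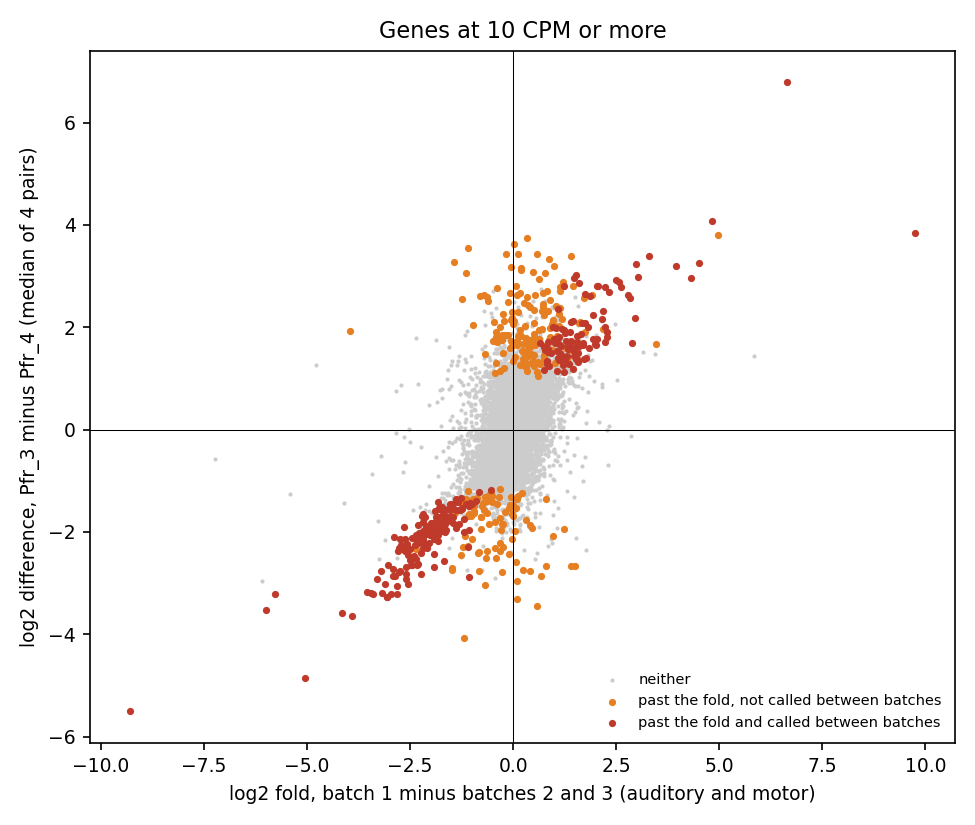
Median log2 difference of Pfr_3 from Pfr_4 over the 4 pairs of sums (vertical axis) against the log2 fold of batch 1 over batches 2 and 3 in auditory and motor cells (horizontal axis), with 1 point per gene at 10 CPM or more. Genes past the fold that were also called between batches, 102 above and 158 below, lie along the diagonal in the upper right and lower left.

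Mir6236 was the named gene furthest above Pfr_4, at 3999 and 2332 CPM in Pfr_3 against 25 and 28.3 CPM. It stood at 3595 and 2539 CPM in auditory and 3623 and 3431 CPM in motor cells of batch 1, and at 20.6 to 48.8 CPM in the 6 sums of those systems from batches 2 and 3. Its batch fold was 6.65 ± 0.23 (adjusted p = 1.76e-09). Its level followed the batch in all 3 projection systems compared. UMIs were counted per gene, so these values do not show whether the mature microRNA given above was present. Casp8, an initiator caspase, showed the reverse, with no UMI in Pfr_3 and 43.1 and 45.9 CPM in Pfr_4, which was at least 253-fold higher against a floor of 3 counts over Pfr_3. It was also at 0 or 0.0499 CPM in all 4 auditory and motor sums of batch 1 and at 6.80 to 44.2 CPM in the other batches. Ptms, parathymosin, and Podxl, a sialomucin, were among the genes that stood higher in batch 1 in the same way, and Podxl and Podxl2 had equal counts in 541 of the 550 cells with a Podxl UMI, so their values are 1 uncertain measurement. The same held for Umod and Umodl1, with equal counts in 24 of 25 cells. Of the 251 genes lower in Pfr_3, 146 were pseudogenes or gene models with no name, among them Rpl21-ps10 and Rps25-ps1.

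The 12 genes furthest above Pfr_4 were Mir6236, Akt1s1, Tmem45b, Podxl, Umodl1, Umod, Rcor1, Podxl2, Zfp251, Tmem158, Ptms and Rps6ka1. Of these, Rcor1 and Zfp251 stood low in Pfr_4 and not in batches 2 and 3 as such. Rcor1, a corepressor that works with REST, stood at 18 and 15.3 CPM in Pfr_3 and at 0.197 and 1.19 CPM in Pfr_4, and Pfr_2 of the same animals as Pfr_4 held 27.9 and 35.2 CPM. Zfp251, a zinc finger gene, stood at 24.2 and 23.2 CPM in Pfr_3, 1.18 and 2.68 CPM in Pfr_4 and 26.2 and 26 CPM in that Pfr_2. The 12 furthest below were Casp8, Ncaph, Siah1b, Eda, Rpl21-ps10, Rps25-ps1, Eif1-ps1, Ptpn20, Rps10-ps2, Rpl21-ps8, Rpl19-ps9 and Cep135. Siah1b, a ubiquitin ligase, stood at 0.171 and 0.265 CPM in Pfr_3 against 11.4 and 13.1 CPM in Pfr_4, and at 14.5 and 9.98 CPM in auditory cells of batch 1, so that its low level was not shared by all batch 1 cells. Adcyap1, which encodes the peptide PACAP, and Calca, which encodes CGRP, were the peptide genes below Pfr_4, with Adcyap1 at 6.00 and 7.23 CPM against 19.5 and 35.2 CPM.

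Against Pfr_2 the contrast in named neuronal genes was larger. Over the Pfr_2 cells of animals 3 and 4, 413 of 10359 genes were higher in Pfr_3 in every pair (3.99%) and 467 lower (4.51%). Of these, 97 of 392 (24.7%) and 106 of 465 (22.8%) were called the same way between batches, while 3 and 7 were called the other way. A total of 102 genes were higher and 104 lower than in both other clusters, of the 262 and 251 past the fold against Pfr_4. Those 262 and 251 were 2.57% and 2.46% of the 10185 genes compared there. Both comparisons set the same 2 Pfr_3 sums against cells of animals 3 and 4, so cluster, batch and animal cannot be told apart in these counts. The 12 furthest above Pfr_2 were Mir6236, Vwa5b1, Cygb, Lypd6b, Baiap3, Podxl, Atp6v1g3, Rab3b, Dkkl1, Doc2a, Gsg1l and Rac3. Lypd6b stood at 0.905 and 0 CPM in Pfr_2, Rab3b at 15.8 and 9.69 CPM, Cygb (cytoglobin) at 0.503 and 0 CPM beside 38.6 and 33.8 CPM in Pfr_3, and Doc2a, a calcium sensor of vesicle release, at 3.62 and 1.02 CPM beside 58.8 and 73.8 CPM. The 12 furthest below were Casp8, Fras1, Adgrf5, H2-M3, Rbms3, Mir9-3, Ncaph, Prkcd, Ret, Plch1, Hpca and Sox5. Prkcd stood at 1448 and 1192 CPM in Pfr_2 and Rbms3, an RNA-binding protein, at 158 and 147 CPM beside 11 and 7.94 CPM in Pfr_3. Hpca, hippocalcin, a neuronal calcium sensor, stood at 49.6 and 29.6 CPM beside 0.686 and 2.12 CPM. Some of these names recur in the comparison with auditory cells or the batch comparison, so the lists are not separate measurements.

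The Pfr_2 cells of animals 1 and 2 allowed the comparison within animal and batch, at the cost of 7 and 8 cells. At that size 1566 of 10438 genes were at least 1 higher in Pfr_3 in both animals (15%) and 560 lower (5.37%). These Pfr_2 sums held 536227 and 816894 UMIs, and the median difference over all genes was 0.35, so counts past the fold are raised in the direction of Pfr_3. Rab3b and Gpx3 had no UMI in the same-animal Pfr_2 cells and were at least 113-fold and 102-fold higher in Pfr_3. Gal and Cnr1 had no UMI there either and were at least 52.3-fold and 26.1-fold higher. Prkcd stood at 975 and 938 CPM, Rora at 1611 and 1462 CPM and Nrxn3 at 696 and 1042 CPM, each above both Pfr_3 sums, and Slc17a7 at 85.8 and 23.3 CPM. Mir6236 stood at 8845 and 6855 CPM in these cells, higher than in Pfr_3 and far above Pfr_2 of the other batches. Zic5 at 22.4 and 211 CPM overlapped Pfr_3, and so did Necab1 at 343 and 559 CPM.

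At a sufficient level, 6 of 9 genes of the midline and intralaminar list were higher than in Pfr_2 of animals 3 and 4. Only 1 was lower, Cck. Within animals the same 6 were higher, Calb2, Gal, Tac1, Drd2, Lypd6b and Col12a1. Tac1 had a UMI in only 12 of the 113 Pfr_3 cells, Drd2 in 24 and Lypd6b in 28. For genes in so few cells, 7 and 8 Pfr_2 cells can show little. Of the fast-spiking list, 5 of 14 were lower than in Pfr_2 and none higher, among them Kcna2 at 239.5 and 355 CPM in Pfr_2. Within animals 2 of 13 were lower, Scn1a and Nefm, while Kcna2 at 112 and 202 CPM stood above Pfr_3 by less than the fold in 1 animal. Over all genes 3.99% were higher and 4.51% lower than in Pfr_2 of animals 3 and 4, and 15% and 5.37% within animals. The medians of the 2 lists were 2.93 and -1.11 against Pfr_2 of animals 3 and 4, beside -0.066 over all genes. Against Pfr_4 they were 0.13 and 0.13, beside 0.014.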

How the data were processed

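The authors deposited a table of raw UMI counts per gene and cell (36589 genes, 1972 cells on 26 plates) with a cell table that gives the animal, plate, sequencing batch, projection target and cluster of each cell. Reads had been handled with cutadapt 1.16, Picard 1.12 and STAR 2.5.3 on mm10, per the submitters' processing notes, while annotation and counting settings are not named in the sources used here. Cells of Pfr_3, Pfr_4 and Pfr_2 were taken from the authors' cluster column. The cluster, its markers, the gene lists and the tests were chosen with earlier results of these data known.

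Raw counts were summed per animal and group for groups of at least 10 cells (5 for the same-animal Pfr_2 cells), and each level is given in CPM, scaled to all UMIs of that sum. Pfr_3, batch 1 auditory and batch 1 motor sums, 2 animals each, were fitted together with edgeR 4.0.16 in R 4.3.3 (filterByExpr, TMM factors of 0.965 to 1.02, trended dispersion, quasi-likelihood test, 3 residual degrees of freedom), and p-values were adjusted by Benjamini-Hochberg over all genes tested at 0.05. The batch comparison used 10 auditory and motor sums with the system as a term. Clusters were compared without a test, as log2(CPM + 1) differences of at least 1 in every pair of sums. These sums held between 1960067 and 20056840 UMIs, and the same-animal Pfr_2 sums 536227 and 816894. Lower bounds of folds use a floor of 3 counts over the group at 0. The animals are separate mice per the cell table, so the p-values measure the spread between 2 mice a group. Per tested comparison, the 10 genes with the largest fold in each direction among those called at a mean of 10 CPM or more in the higher group are named, and 12 in each direction per cluster comparison, leaving out gene models without a name, besides members of the lists. DESeq2 1.42.0, other filters, scalings and dispersions, leaving out each sum, and leaving out cells with glial markers or the authors' flag were tried as alternatives, and the fits were tested on simulated data. No doublet caller was run, since cells were picked by hand.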

Additional observations from a re-analysis of the deposited data

Results flagged for a closer look

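Among 54 groups of 4 to 10 sums or plates examined, 5 held a value far from the rest, where chance gives about 1 in 20. Over the 6 plates of Pfr_3 cells, Tnnt1 stood at 53.1 CPM on plate 5 and at 0.675 to 6.28 CPM on the other 5 plates, and Gal stood at 313 CPM on plate 2 and at 69.3 to 116 CPM elsewhere. In the auditory and motor sums, Ggn stood apart at 35.7 CPM in auditory animal 1 and at 129 CPM in motor animal 2, and was at most 0.219 CPM in the other 8 sums. Ggn was also uneven in Pfr_3, at 78.4 and 1.59 CPM. Kcnk12 stood at 11.1 CPM in auditory animal 2 and at 0 to 1.03 CPM in the other 4 auditory sums.

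The batch difference itself differed between auditory and motor cells for 4 of 16717 genes, by the interaction term of edgeR's quasi-likelihood test with Benjamini-Hochberg adjustment. The motor minus auditory log2 difference was -6.95 for Atp2b4 (adjusted p = 0.00197), -3.39 for Calb2 (adjusted p = 0.00288), -3.77 for Htr2c (adjusted p = 0.0195) and -4.43 for Adgrf5 (adjusted p = 0.0414). Calb2 stood at 1543 and 1290.1 CPM in the auditory sums of batch 1 and at 937, 549 and 963 CPM in the others, and at 11.2 and 7.03 CPM in the motor sums of batch 1 and at 51.6, 63.1 and 49.0 CPM in the others. The batch difference of Calb2 thus had opposite signs in these 2 systems, and its value for prefrontal cells cannot be told apart from the clusters.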

How the results depend on the processing

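For Pfr_3 minus batch 1 auditory cells (358 genes called), no filter on low counts gave 951, the DESeq2 Wald test 1216, leaving out 1 sum 233 to 399, the lowest without auditory animal 2, and all prefrontal cells of batch 1, an alternative chosen after seeing the data, 192. For Pfr_3 minus batch 1 motor cells (847), no filter gave 1559, DESeq2 1926 and leaving out 1 sum 474 to 1047, the lowest without motor animal 2. Between the batches (1030), DESeq2 gave 1715 and leaving out 1 sum 577 to 1046, the lowest without motor animal 1. For Pfr_3 minus Pfr_4 (513), a log2 fold of 2 gave 98, a mean of 1 CPM 1081, subtracting the batch difference, also chosen after seeing the data, 219, and leaving out 1 sum 1200 to 1428. For Pfr_3 minus Pfr_2 (880), a fold of 2 gave 206, a mean of 1 CPM 1503, leaving out 1 sum 1341 to 2405 and the same-animal cells, chosen after seeing the data, 2126. Fewer pairs of sums make the fold easier to pass. The cause of the other shifts was not tested. In the 3 tested comparisons no named value changed sign. Mir6236, 6.61 above Pfr_2 of animals 3 and 4 (median log2 difference), was -1.35 against the Pfr_2 cells of the same animals. Of the called genes named, 57 of 96 against auditory cells, 37 of 121 against motor cells and 1 of 20 between batches lost the call under at least 1 alternative. No paired analysis was possible because the groups tested came from different animals and replicate numbers only name samples. Pfr_3 and Pfr_2 share animals 1 and 2, and their difference within these is given without a test. With 2 mice a group, small differences cannot be detected, and 2 animals of 1 sort date carry all that is known of Pfr_3.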

Other observations

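Beyond the lists described, genes of glycolysis were higher in Pfr_3 than in auditory cells for 3 of 16 tested members and lower for none (0.985% and 1.23% of all genes), but against motor cells 1 was higher, Ldha, and 3 lower, Pfkp, Aldoc and Ldhb. A total of 7 of 16 were called higher in batch 1 than in batches 2 and 3 in auditory and motor cells. The share over all genes there was 3.05%. Eno1, the glycolytic enolase, stood at 921 and 1155 CPM in Pfr_3, at 562 and 617 CPM in auditory and 761 and 704 CPM in motor cells of batch 1, and at 349 to 432 CPM in motor and 353 to 368 CPM in auditory cells of the other batches. The Eno1 call against auditory cells was lost without 1 animal, with an adjusted p of up to 0.185 by edgeR's quasi-likelihood test. Pfr_4 held 769 and 631 CPM and Pfr_2 of animals 3 and 4 held 437 and 456 CPM. Adhesion genes gave 1 higher and 5 lower of 26 tested against auditory and likewise against motor cells (2.61% of all genes higher and 2.63% lower there). Genes of kinase signalling gave 0 higher and 5 lower of 15 against auditory cells, and 3 higher and 4 lower against motor cells.

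The single Pfr_3 cell in joint cluster 6 had no UMI of Calb2, Slc30a3 or Rab3b and held 1191 CPM of Pdyn, which encodes prodynorphin, and 945 CPM of Grp, which encodes gastrin-releasing peptide. It was 1 cell, and its values are given as a description. Atp2b4, a plasma membrane calcium pump, stood at 1.54 and 2.73 CPM in Pfr_3, at 64.0 and 52.6 CPM in auditory cells of batch 1, and at 0.115 and 0.199 CPM in motor cells of batch 1.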
